A study of Mus musculus with 12 samples.

Results

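The gene described here is Uqcrc1, measured by 1 cDNA clone, H3080H01, of the 15600 clones in the deposited table. Uqcrc1 (gene ID 22273, a protein-coding gene on mouse chromosome 9 in the RefSeq annotation) was taken across all 12 arrays of the series. The clone was chosen on these same values, because of its differences between mice in earlier results of these data, so its mouse effects, its genotype difference and its ranks are given as a description with no test. The build behind the clone set is not given in the sources used here, and only the ratio of each clone, not its insert, was analysed.

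RNA came from the kidney inner medulla (kidney medullae in the study's methods) of 3 adult wild type mice, WT1 to WT3, and 3 adult aquaporin-1 knockout mice, KO1 to KO3, and amplified RNA (aRNA) is named in the labels. The knockout mice lack the Aqp1 water channel, and no treatment is given for either genotype. Strain and sex are not given in the sources used here. RNA of 1 mouse was labelled with the green Alexa Fluor dye (channel 1) and RNA of another with the red one (channel 2), and both were hybridized to 1 array in an interwoven loop. Every mouse was hybridized 4 times, on 2 arrays in green and on 2 in red. Of the 12 arrays, 6 compared a knockout with a wild type mouse directly, 3 compared wild type mice with each other and 3 compared knockout mice with each other. The 3 pairs that join a wild type and a knockout mouse of the same number had no array of their own.

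Uqcrc1 encodes core protein 1 of complex III, the ubiquinol-cytochrome c reductase of the mitochondrial inner membrane. Complex III takes electrons that complex I and other dehydrogenases have passed to ubiquinone and hands them to cytochrome c, from which complex IV passes them to oxygen, and the proton gradient built on the way drives ATP synthesis. The core proteins are encoded in the nucleus, carry no redox centre and are needed for the complex to assemble. In the kidney, tubule segments of the cortex and outer medulla are rich in mitochondria, and the inner medulla, where oxygen is low, relies more on glycolysis. Aqp1 is the water channel of the proximal tubule, the thin descending limb and the vasa recta, and mice without it concentrate urine poorly.

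Each deposited value is a difference, green minus red, on the linlog scale, which is log2 for bright spots and linear below a crossover, so a fold change holds only where both channels were above the crossover. The table holds ratios and no intensities. From the ratios, the level of Uqcrc1 in a mouse, its brightness over background and the defining markers of the inner medulla could not be checked as levels. The study's supplement also gives the data of each array, which were not analysed here, and neither was Aqp1 itself. In whole tissue, fewer cells of a type and less RNA per cell cannot be told apart. Over all clones, the SD of the ratios was 0.646 to 0.895 on the 4 arrays that held KO3 and 0.403 to 0.614 on the other 8.

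On the 6 direct arrays, the Uqcrc1 signal was lower in the knockout mouse than in its wild type partner. With the knockout mouse in red, the deposited green minus red value was 0.66 for WT2 over KO1, 0.89 for WT3 over KO1 and 1.27 for WT3 over KO2. With the knockout mouse in green, it was -1.06 for KO2 over WT1, -0.97 for KO3 over WT2 and -1.46 for KO3 over WT1. The sign turned with the dyes, so that wild type was higher on 6 of 6 direct arrays and in both orientations. Written as knockout minus wild type, the mean was -1.16 ± 0.26 (SD, n = 3 arrays) with the knockout in green and -0.94 ± 0.31 (SD, n = 3 arrays) with it in red. The orientations held different mice: KO1 was in red on both of its direct arrays, and KO3 was in green on both of its.

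The same-genotype arrays also gave sizeable ratios. Among wild type mice, the green minus red value was 0.88 for WT1 over WT2, 1.38 for WT1 over WT3 and 1.43 for WT2 over WT3. Among knockout mice, it was 0.25 for KO1 over KO2, 1.72 for KO1 over KO3 and 0.41 for KO2 over KO3. Green was above red on all 6 of these arrays, and on all 6 the mouse in green was the one with the lower number. Their mean was 1.01 ± 0.59 (SD, n = 6 arrays), against -0.11 ± 1.18 (SD, n = 6 arrays) for green minus red on the direct arrays. On each of these arrays, a shift towards green and the order of the mice by number act in the same direction. Among these 6 arrays, only the closed loop of 3 arrays within each genotype separates them. The mouse differences cancel around it and 1 dye term remains. That term was 0.927 for the wild type mice and -1.054 for the knockout mice, of opposite sign and without an error estimate. Arrays across genotypes also bear on the dye term. The loops WT1, WT3, KO2 and WT2, KO1, KO3 carry 3 dye terms each, and they summed to 1.59 and 1.41. The 6 direct arrays alone gave a dye term of 0.23, and all 12 arrays gave 0.45 ± 0.14 (SE).

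**Figure D1:**
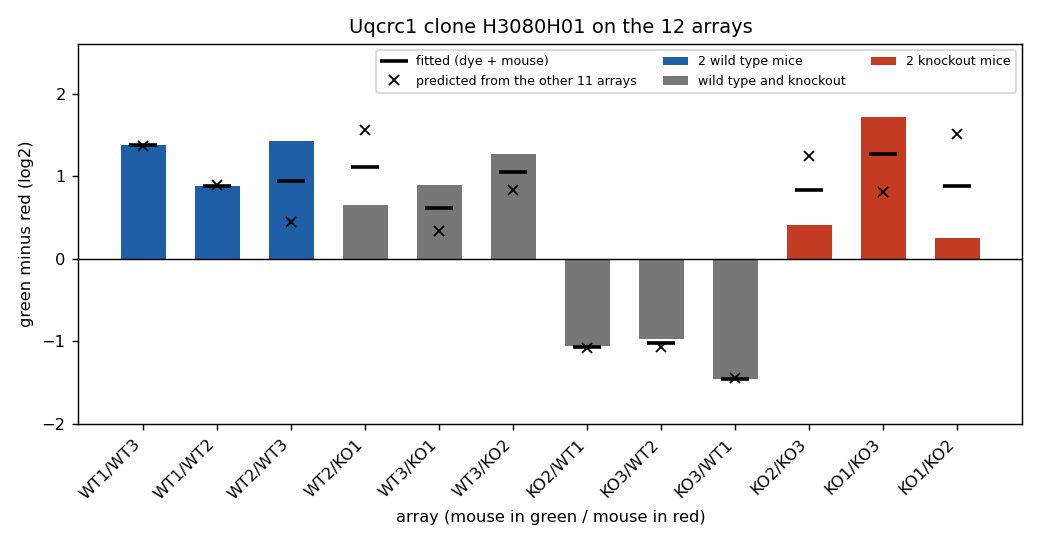
Deposited green minus red value (log2) of the Uqcrc1 clone on each of the 12 arrays (bars, coloured by the genotypes compared), with the value fitted by the dye and mouse terms (black dashes) and the value predicted from the other 11 arrays (crosses). The 3 direct arrays with the knockout mouse in green are negative, at -1.46 to -0.97, and the 9 others are positive; the bar of KO1/KO2 at 0.25 lies farthest from its cross at 1.51.

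The size of the Uqcrc1 ratio was compared with all clones of the same array. On WT2/WT3, the array with the lowest SD over all clones, Uqcrc1 had rank 116 of 15600 by size. It had rank 390 on WT3/KO2, rank 535 on WT1/WT3, rank 601 on KO3/WT1 and rank 1442 on WT1/WT2. On the other 4 direct arrays it had ranks 1083 (KO2/WT1), 1572 (WT3/KO1), 1696 (KO3/WT2) and 1874 (WT2/KO1). Among the knockout arrays it had rank 1041 on KO1/KO3, and on KO1/KO2 and KO2/KO3 ranks 7790 and 6960, close to the middle of the clones.

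The 12 values were then fitted together by a dye term and the contrasts of 5 mice with WT1, and 6 residual degrees of freedom remained. The dye term of Uqcrc1 was 0.45 ± 0.14 (SE) towards green, a size with rank 976 of 15600 clones. The residual SD was 0.47, against a median of 0.37 over all clones and with rank 5194. Relative to WT1, the mouse effect on the log2 scale was -0.43 ± 0.31 (SE) in WT2 and -0.92 ± 0.31 in WT3. It was -1.09 ± 0.34 in KO1, -1.52 ± 0.31 in KO2 and -1.90 ± 0.31 in KO3. The fitted order was thus WT1, WT2, WT3, KO1, KO2 and KO3 from high to low, over a range of 1.90, and as folds the last mouse was at 0.268 of the first.

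Neighbours in that order were close compared with their errors. WT1 and WT2 differed by 0.43, WT2 and WT3 by 0.49, KO1 and KO2 by 0.43 and KO2 and KO3 by 0.38, each with an SE of 0.31. WT3, the lowest wild type mouse, and KO1, the highest knockout mouse, were 0.17 ± 0.31 (SE) apart. Over the 15 pairs of mice, the difference was 0.55 (WT3 with KO1) to 6.21 (WT1 with KO3) times its SE. This is a description and no test, because the clone was chosen on these values. In 9 of the 15 pairs the difference was over 2 SE. All 5 pairs of neighbours were under 2 SE, as was WT3 with KO2, which differed by 0.60 ± 0.31.

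**Figure D2:**
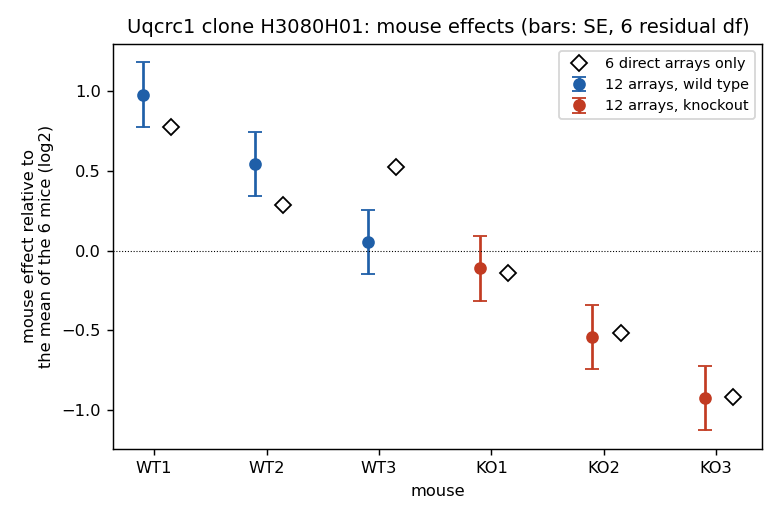
Mouse effect of the Uqcrc1 clone (log2, relative to the mean of the 6 mice) from all 12 arrays, with bars of 1 SE (filled points, blue for wild type and red for knockout), and from the 6 direct arrays alone (open diamonds, no error available). Filled points lie between 0.98 in WT1 and -0.92 in KO3, and the bars of WT3 and KO1 overlap; the diamonds put WT3 at 0.52, above WT2 at 0.28.

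The genotype difference was of the size of the range within each genotype. The mean of the 3 knockout mouse effects was 1.05 below that of the 3 wild type mice (-1.05 ± 0.36, SE from the spread between mice), or 0.482 of the wild type level as a fold. The SD over mice was 0.46 in wild type and 0.41 in knockout (n = 3 each), and the range was 0.92 in wild type and 0.81 in knockout. The difference was therefore 2.42 times the pooled SD within genotypes, and 68.7% of the sum of squares between mice lay between the genotypes. All 9 pairs across genotypes had the knockout lower, by 0.17 to 1.90 (median 1.09). The 6 pairs within a genotype differed by 0.38 to 0.92 (median 0.46), so the pairs within and across genotypes overlapped in size.

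**Figure D3:**
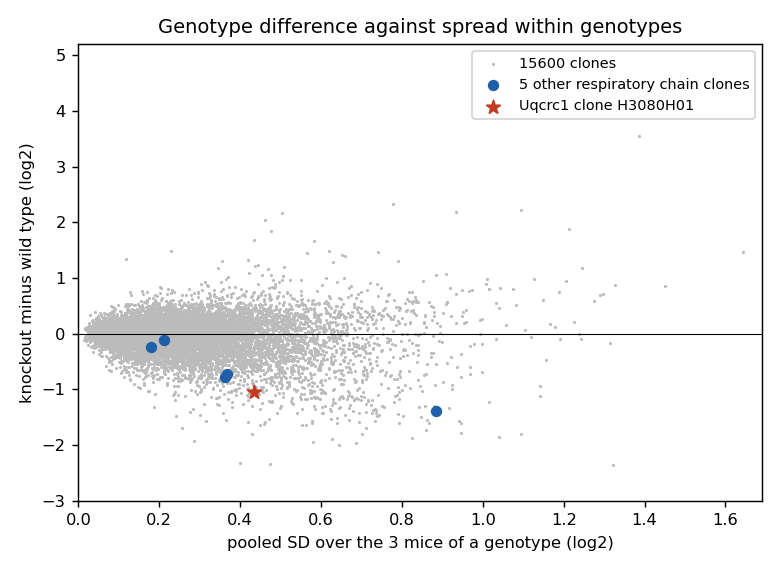
Difference between genotypes (knockout minus wild type, log2) against the pooled SD over the 3 mice of a genotype (log2) for each of 15600 clones (grey), the 5 other respiratory chain clones (blue) and the Uqcrc1 clone (red star). The star is at -1.05 and 0.43; clones with larger differences in either direction lie around and beyond it.

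The ranks of Uqcrc1 among all clones differed between measures. By size of the genotype difference it had rank 212 of 15600, where the median size was 0.13 and the 95th percentile 0.64. By the genotype difference over its plain SE, which divides by the spread between mice, it had rank 1051, and by limma's moderated t rank 394. Its range over the 6 mice had rank 477, its plain F for the mouse term rank 480 and its moderated F rank 280. The SD over wild type mice had rank 902 and that over knockout mice rank 2728. Among the 314 clones with a description in the part of the array layout used here, it had rank 9 by size of the genotype difference and rank 6 by moderated F.

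Complete separation of the genotypes in this direction was common on these arrays. All 3 wild type mice lay above all 3 knockout mice in 1382 of 15600 clones (8.86%), and all knockout mice above all wild type mice in 1074 (6.88%). A gap between the groups at least as wide as that of Uqcrc1 was found in 467 clones, of which it is 1, and the order WT1, WT2, WT3, KO1, KO2, KO3 in 95.

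The arrays that hold the same mice were checked against each other. Around a closed loop of 3 mice the mouse differences sum to 0, so after removal of the dye term the sum is error alone. Over the 8 loops of 3 arrays, the closing error of Uqcrc1 was 0.06 to 1.50 in size. The loop WT1, WT3, KO2 closed to 0.24, the loop WT2, KO1, KO3 to 0.06 and the loop WT1, WT2, KO3 to -0.06. The loop of the 3 knockout mice closed to -1.50, and the loop WT2, WT3, KO1 to 1.22. The errors of these last loops were larger than most single mouse differences of the clone.

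Predicted from the other 11 arrays, each array had the observed sign, in 12 of 12. The 4 arrays of WT1 were predicted to within 0.02. The value of KO1/KO2 was 0.25 against a prediction of 1.51, a difference of -1.26 and the widest of the 12. WT2/WT3 was 0.98 above its prediction, KO1/KO3 was 0.91 above, WT2/KO1 was 0.90 below and KO2/KO3 was 0.84 below. Once the dye term was removed, the array that held both put KO2 0.20 above KO1, and the array of KO2 with KO3 put KO3 0.04 above KO2, whereas the fit to all arrays had differences of -0.43 and -0.38. Of the 3 pairs of knockout mice, only KO1 with KO3 had the fitted direction on its own array, at -1.27.

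The 6 direct arrays alone are just enough to solve for the 5 mouse contrasts and the dye term, without error estimates. They gave a dye term of 0.23, and relative to WT1 they put WT3 at -0.25, WT2 at -0.49, KO1 at -0.92, KO2 at -1.29 and KO3 at -1.69. WT3 and WT2 changed places compared with the fit to all arrays, and the gap between the lowest wild type and the highest knockout mouse was 0.43 in place of 0.17. The genotype difference was -1.05 in both, because the balanced loop takes it from the direct arrays only.

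With each array left out in turn, WT1 stayed highest and KO3 lowest in 12 of 12 fits, and the genotype difference was -1.20 to -0.96. Without any 1 of the 6 same-genotype arrays it stayed at -1.05 by construction, because it comes from the direct arrays only. The lowest wild type mouse stayed above the highest knockout mouse in 10 of 12. Without WT3/KO1 and without KO1/KO2, KO1 lay above WT3, by 0.06 and 0.10. When a whole mouse was dropped (4 arrays), the genotype difference was -1.35 (without KO1) to -0.83 (without WT1), and the mice of the 2 genotypes stayed apart in 5 of 6 fits. Without KO2, KO1 was 0.03 above WT3.

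**Figure D4:**
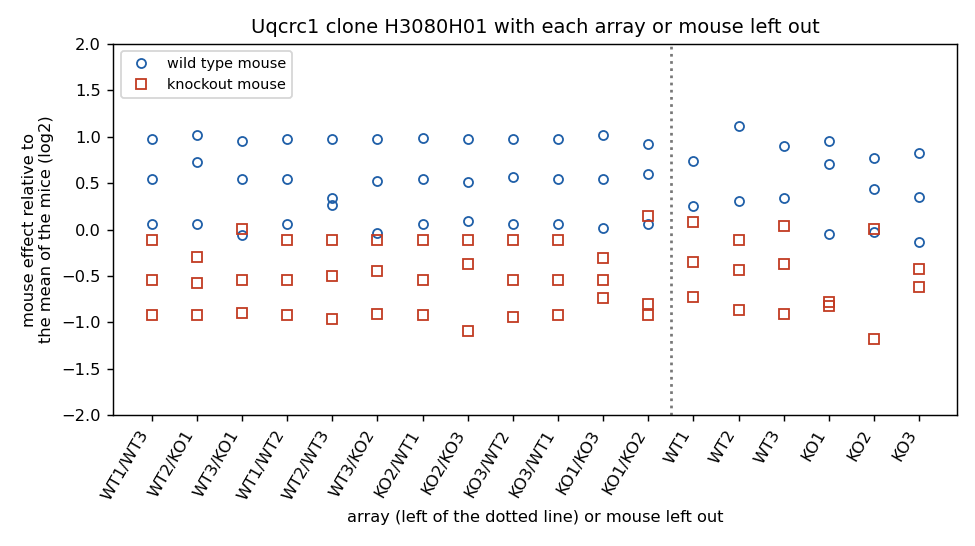
Mouse effects of the Uqcrc1 clone (log2, relative to the mean of the mice in the fit) with each of the 12 arrays (left of the dotted line) or each of the 6 mice and its arrays (right) left out; blue circles are wild type mice and red squares knockout mice. Circles and squares stay apart in all columns but WT3/KO1, KO1/KO2 and KO2, where KO1 lies above WT3 by 0.03 to 0.10.

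Array names in the study's supplementary files, not the labels, carry a day, which was treated as a batch of arrays. KO1/KO2, the array farthest from its prediction, carries none and shared a dye term with KO1/KO3 in the fit by day. By elimination, KO1/KO2 is the array whose supplementary name marks a rescan and gives neither mice nor date. An effect of the rescan was not tested. The direct arrays of day 1 all held KO1, those of day 2 KO2 and those of day 3 KO3, with 2 direct arrays on each. Knockout minus wild type averaged -0.78 on day 1, -1.17 on day 2 and -1.22 on day 3. The direction was the same within each day, but the day and the knockout mouse cannot be told apart on the direct arrays. With a dye term for each day, the genotype difference was -0.97 and the gap between WT3 and KO1 was 0.01.

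The other respiratory chain clones of the part of the layout used here had lower knockout means, and none passed a test. The 5 clones were 3 of complex I, the NADH-ubiquinone oxidoreductase (PDSW, now Ndufb10, Ndufb5, and Grim19, now Ndufa13, all accessory subunits), and 2 of cytochrome c oxidase III, a core subunit of complex IV that is encoded in mitochondrial DNA. At a limma adjusted p under 0.05 over all clones, 0 of 5 differed among the 6 mice, against 283 of 15600 clones (1.81%). With the plain gene-wise variance 2 of all clones and none of the 5 were called, and 1 of the 5 had an unadjusted limma p under 0.05, against 15.2% of all clones. Between the genotypes, limma called 0 of 5 and 0 of 15600 (0%), also with the plain variance. At an unadjusted limma p under 0.05, 3 of the 5 were lower in knockout mice and 0 higher, against 6.55% and 2.97% of all clones, and 0 of the 5 with the plain variance, against 7.94% of all clones in either direction.

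Ndufb5 was the chain clone whose mice were most like those of Uqcrc1. Relative to WT1, its mouse effects were 0.68 in WT2, -0.01 in WT3, -0.22 in KO1, -0.60 in KO2 and -0.87 in KO3. Its wild type mice all lay above its knockout mice, and KO3 was lowest as in Uqcrc1, but WT2 was highest, not WT1. The genotype difference of Ndufb5 was -0.78 ± 0.30 (SE; limma adjusted p = 0.419), and -0.48 without WT3/KO1.

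The clones of cytochrome c oxidase III scattered widely between arrays, with residual SDs of 1.64 and 1.66. For H3120H07 the mouse effects relative to WT1 were 1.55 in WT2, -0.19 in WT3, -0.02 in KO1, -1.29 in KO2 and -1.52 in KO3, and its genotypes overlapped. Its genotype difference was -1.40 ± 0.72 (SE; limma adjusted p = 0.518), and it was -0.81 without WT3/KO1 and -0.65 with a dye term for each day. For H3102H01 they were 1.02 in WT2, 0.61 in WT3, -0.16 in KO1, -0.27 in KO2 and -0.13 in KO3, and its genotype difference was -0.73 ± 0.30 (SE; limma adjusted p = 0.447), which became 0.14 with a dye term for each day and was -0.24 without WT3/KO1, -0.40 without KO2/WT1, -0.42 without WT3, -0.14 without KO1 and -1.39 without KO3. Both clones are described as the same transcript. KO1 lay near WT1 in both, and near the other knockout mice only in H3102H01. The residual SDs of both clones were larger than these differences, so the place of KO1 is not resolved by them.

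The remaining complex I clones differed little between genotypes. PDSW had a difference of -0.23 ± 0.15 (SE; limma adjusted p = 0.678) and Grim19 one of -0.12 ± 0.17 (SE; limma adjusted p = 0.864). Both differences turned sign in 1 fit with an array or mouse left out, to 0.0070 for PDSW without WT3 and 0.035 for Grim19 without KO2/WT1. Their ranges over the mice were 0.56 and 0.50, near the median of 0.53 over all clones. Over the 5 chain clones, the median genotype difference was -0.73, beside -0.00135 over all clones. That median is the value of H3102H01, and it was -0.29 with a dye term for each day, -0.24 without WT3/KO1, -0.40 without KO2/WT1, -0.42 without mouse WT3 and -0.36 without mouse KO1. All wild type mice lay above all knockout mice in 2 of the 5 (Ndufb5 and H3102H01), against 8.86% of all clones. In H3102H01 the highest knockout mouse, KO3, was at -0.13 relative to WT1, the lowest wild type mouse, with a residual SD of 1.64.

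**Figure D5:**
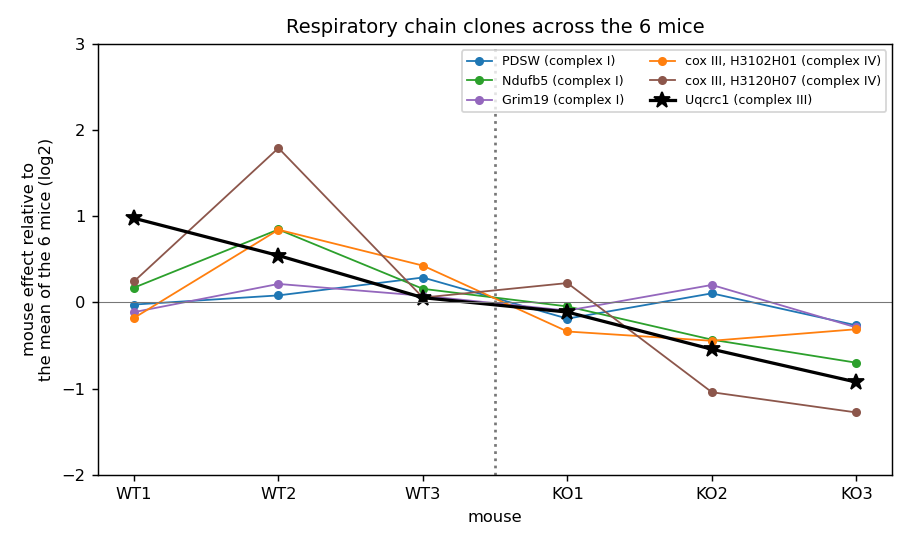
Mouse effect (log2, relative to the mean of the 6 mice) of the Uqcrc1 clone (black stars) and of the 5 other respiratory chain clones, with wild type mice left and knockout mice right of the dotted line. Uqcrc1 is highest in WT1, at 0.98, whereas Ndufb5 and both cytochrome c oxidase III (cox III) clones are highest in WT2; PDSW and Grim19 stay within a range of 0.56.

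Of 8 other mitochondrial clones, 7 had lower and 1 a higher knockout mean, with a median of -0.42. None was called by limma among the mice or between the genotypes, and 4 of the 8 had an unadjusted limma p under 0.05 among the mice (15.2% of all clones). All wild type mice lay above all knockout mice in 2 of the 8, against 8.86% of all clones, and the reverse held in 0, against 6.88%. The lowest was Ak4, the adenylate kinase of the mitochondrial matrix, at -1.18 ± 0.58 (SE; limma adjusted p = 0.5005), with overlapping genotypes and WT2 highest. It was -0.59 without WT3/KO1, -0.72 without KO1, -1.79 without WT3/KO2 and -0.41 with a dye term for each day. The highest was Ppox, a late enzyme of haem synthesis, at 0.12 ± 0.10 (SE; limma adjusted p = 0.802). Between the genotypes, 1 of the 8 had an unadjusted limma p under 0.05 and was lower in knockout mice, against 6.55% of all clones. With the plain variance it was 0 of 8, against 7.94% of all clones in either direction.

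Cytosolic ribosome clones were taken as a group outside the mitochondrion. Of 8, 5 had lower and 3 higher knockout means, with a median of -0.15 and 0 called by limma among mice or between genotypes, and 2 of the 8 had an unadjusted limma p under 0.05 among the mice (15.2% of all clones). All wild type mice lay above all knockout mice in 1 of the 8, against 8.86% of all clones, and the reverse held in 0, against 6.88%. Between the genotypes, 1 of the 8 had an unadjusted limma p under 0.05, lower in knockout mice, against 6.55% of all clones. With the plain variance it was also 1 of 8, against 7.94% of all clones in either direction. In both cases it was H3084G07, described as similar to the 60S protein L30, at -0.55 ± 0.19 (SE; limma adjusted p = 0.413). The highest genotype difference was that of H3089G07, a 60S protein, at 0.29 ± 0.21 (SE; limma adjusted p = 0.700).

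Markers of the medulla and of other cell types were checked as ratios. Of 11 clones, 6 had lower and 5 higher knockout means, with a median of -0.06, and 0 were called by limma among mice or between genotypes. Between the genotypes, 3 had an unadjusted limma p under 0.05, all lower in knockout mice, against 6.55% of all clones. With the plain variance it was 2 of the 11, against 7.94% of all clones in either direction. Among the mice, 2 of the 11 had an unadjusted limma p under 0.05 (15.2% of all clones). All wild type mice lay above all knockout mice in 3 of the 11, against 8.86% of all clones, and the reverse held in 0, against 6.88%. The lowest was Osp94 (now Hspa4l), an osmotic stress protein of the medulla, at -1.59 ± 0.34 (SE; limma adjusted p = 0.281). The highest was Slc21a2 (now Slco2a1), the prostaglandin transporter, at 0.37 ± 0.37 (SE; limma adjusted p = 0.764). Atp6v1a1 (now Atp6v1a), a proton pump subunit abundant in intercalated cells, was at -1.06 ± 0.47 (SE; limma adjusted p = 0.465). Its knockout order differed from that of Uqcrc1, with KO2 lowest. Both clones of the globin Hba-x were lowest in WT1, by 0.95 to 1.87 relative to the other 5 mice. Their residual SDs were 1.22 (H3125H07) and 1.00 (H3126H01), and the limma F over the mice gave adjusted p = 0.487 and 0.331. The part of cell composition or blood in the Uqcrc1 pattern was not tested.

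Likeness to Uqcrc1 was measured as Pearson's r over the 6 mouse effects, which come from the same 12 arrays for every clone. Among the 174 other described clones with a range of at least 0.5 over the mice, the most alike were H3084G07 (the L30-like clone above, r = 0.988), 1810038N03Rik (now Med30, a Mediator subunit, r = 0.975) and 2700002I20Rik (now Timm21, a part of the import machinery of the mitochondrial inner membrane, r = 0.974). Their genotype differences were smaller than that of Uqcrc1, at -0.55, -0.41 and -0.46. The most opposite were Mdm4, an inhibitor of p53 (r = -0.981), Mcrs1 (r = -0.959) and H3120G07, described only by likeness to another mouse clone (r = -0.915), with genotype differences of 0.30, 0.33 and 0.53. Among all 8249 clones with such a range, 1.31% had an r of at least 0.95, Uqcrc1 itself not counted, and 0.461% an r of -0.95 or below. In the order given, the 3 most alike clones ranged over 0.92, 0.69 and 0.66, with residual SDs of 0.54, 0.66 and 0.33. The 3 most opposite ranged over 0.51, 0.51 and 1.08, with residual SDs of 0.52, 0.44 and 0.45. The limma F over the mice gave these clones adjusted p = 0.330 to 0.835. With 6 points, a likeness of this size is a description of the shared order of the mice.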

How the data were processed

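The deposited values were made by the authors from 12 two-colour arrays printed with the NIA 15 K mouse cDNA clones, scanned on an arrayWoRx reader. Local background was subtracted, intensities were transformed by linlog, normalized by lowess on intensity and position in CARMA, and duplicate spots were averaged by the authors. The values are log2 ratios, green minus red, for 15600 clones with 0 missing values, and spots were extracted again from the original images per the labels. Depth does not apply to arrays, and their number limits the precision.

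Ratios were fitted in R 4.3.3 with a dye term and 5 mouse contrasts. The mouse F and the genotypes (limma on the 6 mouse effects, 3 against 3) used limma 3.58.1 with Benjamini-Hochberg adjustment over all clones, called at 0.05; the code was tested on simulated data. Replicates are separate mice. The clone, lists and tests were chosen with earlier results of these data known. Named were Uqcrc1, the respiratory chain clones, the extremes of the other lists, and the 3 described clones most and least alike; Atp6v1a1 and the Hba-x clones were named from their list. The part of the layout used describes 314 clones, and 23 of 29 names of Uqcrc1 and the lists matched a RefSeq gene (GRCm38.p6). The alternatives were other dye terms, centring, scaling, quantile normalization, array weights, outlier removal, a number block and leaving out arrays or mice. Mouse numbers are shared by the genotypes without a stated pairing. Figures were drawn in Python 3.11.15 with matplotlib 3.10.9.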

Additional observations from a re-analysis of the deposited data

How the results depend on the processing

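The genotype difference of Uqcrc1 (-1.05) stayed negative under every alternative run, at -1.14 with quantile-normalized ratios to -0.96 with array quality weights, and at -1.35 to -0.83 with each array or mouse left out. The fit without a dye term, the mean of the direct arrays and each fit without 1 same-genotype array returned -1.05 by construction of the balanced loop. The studentized residual criterion removed 0 arrays. The range over the mice (1.90) was 1.69 to 1.89 under the alternatives that changed it and 1.45 (without KO3) to 2.08 with an array or mouse left out. Relative to WT1, KO2 and KO3 were at -1.52 and -1.90 in the main fit. They lay closer together, at -1.65 and -1.71, with scaled arrays and, at -1.73 and -1.78, with quantile-normalized ratios. With mouse number as a block, the genotype difference was -1.05, which the balance also fixes, and 0 clones were called between the genotypes. The labels give no shared litter or day, so the numbers were not taken as pairs. Deviations of same-numbered mice correlated at -0.08, -0.24 and -0.04 over clones. Those of the other pairs correlated at -0.26 (WT3 with KO1) to 0.34 (WT3 with KO2). These values cannot decide whether the mice were paired, because the same-numbered pairs alone had no array of their own. The count of clones that differ among the mice (283) depended on the setting: it was 163 without a dye term, 2 with a dye term for each day, 120 with scaled arrays, 1097 with array quality weights, 2 with plain variances, 8 at an adjusted p under 0.01 and 0 to 245 with an array or mouse left out. The count between the genotypes was 0 throughout. For 16 other named clones, 1 of 96 genotype differences turned its sign, that of H3102H01 with a dye term for each day (0.14). With an array or mouse left out, 4 of 288 turned, over ranges of -0.39 to 0.0070 for PDSW (without WT3), -0.23 to 0.035 for Grim19 (without KO2/WT1), -0.029 to 0.21 for Ppox and -0.063 to 0.55 for Mcrs1 (both without KO3). Atp6v1a1 and both Hba-x clones are not among the 16 and were not followed through these fits. The fit to the 6 direct arrays alone and the medians of the chain clones by setting were chosen after seeing the data. The causes were not tested. Signal over background was not assessed, because the deposited values are ratios and the array data in the study's supplement were not analysed.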
